A study of Mus musculus with 17 samples.

Results

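Interferon-stimulated genes are genes whose transcription is raised by interferons. Of 39 listed genes of this kind, 37 had a probe set assigned to a single gene symbol and were measured, among 22180 genes tested in all. They comprise 30 of 31 listed targets of type I interferon, such as Ifit1, Oas2 and Rtp4, and 7 of 8 listed guanylate-binding or immunity-related GTPases, such as Gbp4, Gbp8 and Igtp. Ifi44 had no such probe set and Gbp2 shared its probe set with Gbp2b, so neither is described. Where a gene had several probe sets, as Ifi35 did, the probe set with the highest mean was used.

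RNA of sorted mouse cells was hybridised to 17 Affymetrix Mouse Gene 2.0 ST arrays. The bone marrow populations were EILP (early innate lymphoid progenitor, 1 array), CLP (common lymphoid progenitor), LMPP (lymphoid-primed multipotent progenitor), flt3+ CMP and flt3- CMP (common myeloid progenitors with and without the receptor Flt3) and HSC (haematopoietic stem cell). NK cells were a further population. The thymic populations were DN3 (a later CD4- CD8- thymocyte stage) and ETP (early thymic progenitor). Every population except EILP had 2 arrays. According to the design text, sorted cells were pooled from chimeric B6 CD45.1 mice that had received 900 rads and marrow of TCF-1 GFP reporter donors, and that were used 12 weeks later. The design text describes no untransplanted mice. It does not name the NK cells, so their source was not stated. No interferon treatment and no infection was described. Any effect of the irradiation or the transplant on the levels was not tested. The ages of the mice are not stated.

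Type I interferons bind a receptor made of Ifnar1 and Ifnar2, and the kinases Jak1 and Tyk2 then activate a complex that contains Stat2 and Irf9 and binds the interferon-stimulated response element (ISRE). Interferon gamma binds Ifngr1 and Ifngr2 and acts through the gamma-activated site (GAS). Guanylate-binding proteins and immunity-related GTPases respond strongly to interferon gamma, whereas Ifit, Oas and Mx genes are classical type I targets. In bone marrow, type I interferon is known to push stem cells into division, and tonic interferon signalling sets a basal level of these genes in many blood cells.

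The promoters are shown first, because the members differ in which of the elements they hold. RefSeq promoters of mouse build GRCm38.p6, reaching 250 bases before to 50 bases after each start, were found for 27 of the 39 listed genes. The ISRE core was searched as GAAA, any 2 bases and GAAA again, or as its reverse complement, TTTC, any 2 bases and TTTC, and GAS as TTCNNNGAA, which is its own reverse complement, where N is any base. Parts of the promoters of the members described in full that hold a match are printed 5′ to 3′ on the strand of the gene, with the matches in capitals. Overlapping matches run together, as the 3 ISRE matches of Isg15 do. Where a gene had several starts, only windows with a match are printed. GAS match alone means that no ISRE match lay in the windows searched. Elements outside these windows, or that differ from the pattern, were not looked for.
Isg15, encoding a ubiquitin-like modifier (chr4:156200845-156200926, minus strand): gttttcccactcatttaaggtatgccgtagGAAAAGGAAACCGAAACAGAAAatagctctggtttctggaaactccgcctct
Ifit1, encoding a sensor of incompletely capped RNA (chr19:34640755-34640843, plus strand): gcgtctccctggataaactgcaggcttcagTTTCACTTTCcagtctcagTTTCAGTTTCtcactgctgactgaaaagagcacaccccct
Ddx60, encoding an antiviral helicase (chr8:61928004-61928107, plus strand): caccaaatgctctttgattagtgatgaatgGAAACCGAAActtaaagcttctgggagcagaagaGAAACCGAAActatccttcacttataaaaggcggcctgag
Stat2, encoding the type I signal transducer (chr10:128270248-128270315, plus strand): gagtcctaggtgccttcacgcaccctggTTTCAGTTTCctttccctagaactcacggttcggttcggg
Igtp, encoding an immunity-related GTPase, with a GAS followed by an ISRE match (chr11:58199481-58199561, plus strand): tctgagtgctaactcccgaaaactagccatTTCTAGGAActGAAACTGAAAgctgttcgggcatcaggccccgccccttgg
Gbp7, encoding a guanylate-binding protein, with 2 GAS matches before an ISRE match (chr3:142530200-142530322, plus strand): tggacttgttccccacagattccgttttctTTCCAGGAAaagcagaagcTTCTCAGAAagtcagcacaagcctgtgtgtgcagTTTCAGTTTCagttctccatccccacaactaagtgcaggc
Irf1, encoding a transcription factor, GAS match alone (chr11:53769894-53769962, plus strand): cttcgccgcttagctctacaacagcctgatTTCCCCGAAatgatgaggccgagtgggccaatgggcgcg
Isg20, encoding an exonuclease, GAS match alone (chr7:78913321-78913389, plus strand): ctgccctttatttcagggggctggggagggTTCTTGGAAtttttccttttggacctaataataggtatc
Ifit2, encoding an RNA-binding relative of Ifit1, GAS match alone (chr19:34550444-34550491, plus strand): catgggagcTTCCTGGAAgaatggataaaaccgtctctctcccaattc
Samhd1, encoding a nucleotide hydrolase, GAS match alone (chr2:157135293-157135346, minus strand): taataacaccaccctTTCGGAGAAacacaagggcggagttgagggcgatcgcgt

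Some genes had several start sites, giving 34 promoters for the 27 genes. An ISRE match lay in 16 of the 34 (47.1%), against 1131 of 32851 promoters of all genes (3.44%). A GAS match lay in 8 of the 34 (23.5%), against 2726 of the 32851 (8.30%). By gene, all 5 GTPases with a promoter held an ISRE match, and 10 of 22 type I targets did. These include Gbp2 and Ifi44, whose levels were not measured. No promoter was found for Gbp4, Gbp8, Oas2 or Rtp4, among others. Among the measured members, an ISRE match was held by 9 of the 16 whose level differed between populations by the F-test described next and by 5 of the 9 whose level did not pass it. A match is a run of letters and was not tested as a binding site.

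The labels were compared with lists of 4 or 5 measured markers each, by the summed log2 level on an array, Tcf7 not being analysed here. The HSC, CLP, NK, ETP and DN3 lists were higher on every array of their own population than on any other array. The CMP list was highest in flt3- CMP (40.38 to 40.89), while flt3+ CMP (37.41 to 38.90) overlapped EILP (38.41) and CLP (37.14 to 37.80). The LMPP list summed to 44.04 to 45.75 in LMPP and overlapped ETP (44.70 to 45.57). The 2 arrays of a population correlated across genes at 0.973 to 0.990. The array medians lay between 4.45 and 4.62. Among the members, the median absolute difference between 2 arrays of a population was between 0.18 in flt3- CMP and 0.40 in NK. The 5 EILP markers summed to 33.75 in EILP and were higher in NK (34.04 to 35.08), so these lists do not set EILP, LMPP or flt3+ CMP apart from every other population. Transcripts of the Y chromosome were high on the CLP, EILP and DN3 arrays and below the overall median in the other populations, so comparisons across that split carry that difference as well.

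The level of 25 of the 37 members differed between the 9 populations, at an adjusted p under 0.05 in limma's moderated F-test with Benjamini-Hochberg adjustment over all genes, against 22.7% of all genes tested. The 25 comprise 20 of 30 type I targets and 5 of 7 GTPases. All levels are the deposited log2 values, so a difference of 1 is a 2-fold difference. By role, the test called all 4 nucleic acid sensors (Ifih1, Dhx58, Ddx60 and Zbp1), 3 of 4 members of the oligoadenylate synthetase family, 3 of 5 of the Ifit and Isg15 group, 8 of 12 other effectors, 2 of 5 regulators, 4 of 5 guanylate-binding proteins and 1 of 2 immunity-related GTPases. The population means spanned 6.14 for Samhd1, 6.11 for Gbp8, 5.50 for Gbp4 and 2.72 for Zbp1, and less for each of the other members. Gbp6 lay below the median of all values, 4.54, on every array (2.59 to 3.42), and Mx1 and Mx2 lay below it on average.

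The arrays fell into sets by the mean deviation of the 30 type I targets from their own averages over the populations. This deviation was -0.34 and -0.41 on the DN3 arrays, -0.34 and -0.21 on the flt3+ CMP arrays and -0.28 and -0.26 on the flt3- CMP arrays. It was above 0 on all other arrays, between 0.03 on NK array 1 and 0.28 on LMPP array 2. Without Samhd1 the DN3 values were -0.20 and -0.26. Of the 30 type I targets, 10 (33.3%) had their lowest mean in DN3, where 11.3% of all genes did. The 7 GTPases deviated by 0.83 and 1.28 on the NK arrays and by 1.26 and 1.15 on the DN3 arrays, and by -0.72 on the EILP array. Without Gbp4 and Gbp8 these values were 0.25 and 0.56 for NK, 0.10 and 0.02 for DN3 and -0.53 for EILP. DN3 arrays were thus among the lowest in type I targets and, through Gbp4 and Gbp8, high in GTPases.

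**Figure D1:**
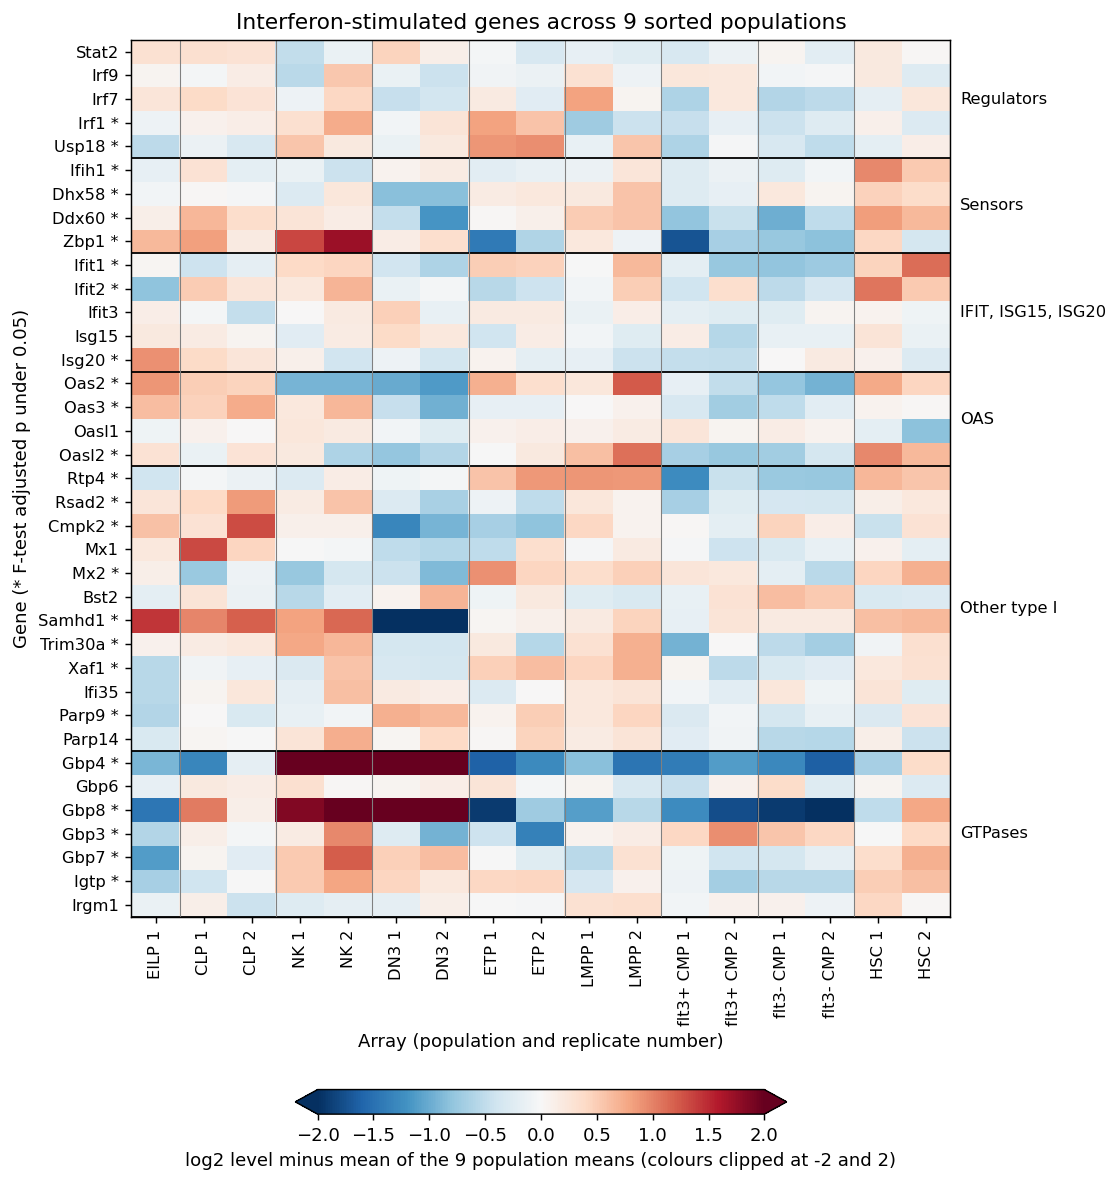
Heat map of the log2 level of each of the 37 measured members on each of the 17 arrays, as the difference from the mean of its 9 population means, with colours clipped at -2 and 2 and an asterisk for the 25 members called by the F-test. Gbp4 and Gbp8 are high on the NK and DN3 arrays, Samhd1 is low on the DN3 arrays alone, and many type I targets are low on the CMP and DN3 arrays.

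The type I targets did not all vary together. Over the 9 population means, the correlation of a target with the mean of the other targets had a median of 0.36, was above 0.5 for 13 of the 30 and below 0 for 6. It was 0.97 for Ddx60, 0.88 for Irf7, 0.83 for Oasl2 and 0.82 for Rsad2 (viperin), and -0.81 for Bst2 (tetherin, which holds budding virions at the cell surface). These correlations are descriptions over points that share 17 arrays, and have no test.

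Among the regulators, the components of the type I signalling complex and its amplifier Irf7 were not called in any comparison. Irf9, the DNA-binding subunit, had 6.50 in EILP, 6.42 and 6.60 in CLP, 5.92 and 6.99 in NK, 6.32 and 6.03 in DN3, 6.38 and 6.34 in ETP, 6.76 and 6.36 in LMPP, 6.69 and 6.67 in flt3+ CMP, 6.41 and 6.44 in flt3- CMP and 6.66 and 6.20 in HSC, with an F-test adjusted p of 0.896. The 2 NK arrays differed more than any pair of populations did in their means. Stat2 had 6.17 in EILP, 6.18 and 6.15 in CLP, 5.38 and 5.73 in NK, 6.30 and 5.98 in DN3, 5.83 and 5.54 in ETP, 5.71 and 5.62 in LMPP, 5.54 and 5.75 in flt3+ CMP, 5.92 and 5.66 in flt3- CMP and 6.06 and 5.89 in HSC, with an adjusted p of 0.0865. EILP, CLP and DN3 held the high end of this order and NK the low end.

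Irf7 had 6.05 in EILP, 6.20 and 6.09 in CLP, 5.72 and 6.23 in NK, 5.36 and 5.45 in DN3, 6.0 and 5.58 in ETP, 6.62 and 5.86 in LMPP, 5.20 and 6.02 in flt3+ CMP, 5.23 and 5.28 in flt3- CMP and 5.63 and 6.04 in HSC, with an adjusted p of 0.174. It was lowest in flt3- CMP and DN3, and its flt3+ CMP arrays were far apart. Isg15, whose promoter holds 3 overlapping ISRE matches, had 5.51 in EILP, 5.50 and 5.38 in CLP, 5.09 and 5.49 in NK, 5.71 and 5.53 in DN3, 4.93 and 5.47 in ETP, 5.26 and 5.08 in LMPP, 5.47 and 4.76 in flt3+ CMP, 5.18 and 5.18 in flt3- CMP and 5.58 and 5.19 in HSC, with an adjusted p of 0.678. The arrays of the populations overlap in Isg15, so their order was not resolved. The other members that did not pass the F-test were Ifit3, Oasl1, Mx1, Bst2, Ifi35, Parp14, Gbp6 and Irgm1, with adjusted p between 0.0512 for Parp14 and 0.803 for Gbp6.

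Between flt3- CMP and HSC, 9 of the 37 members fell and 1 rose, where 4.22% of all genes were called in either direction, 1.82% lower and 2.40% higher. The genes that fell were the effectors Ifit1, Ifit2, Oas2, Oasl2 and Rtp4, the RNA sensors Ifih1 (MDA5) and Ddx60, and the GTPases Gbp8 and Igtp, and Bst2 rose. Of the 30 type I targets 7 fell and 1 rose, and of the 7 GTPases 2 fell. The median log2 difference was -0.40 over the 30 type I targets and -0.81 over the 7 GTPases, against 0.04 over all genes. Differences were below 0 for 30 of the 37 members and for 9723 of the 22180 genes.

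Ifit1 had 4.77 and 4.84 in flt3- CMP and 6.01 and 6.68 in HSC, a log2 difference of -1.54 ± 0.25 (SE, n = 2 each, adjusted p = 0.00499). Ddx60 had 5.13 and 5.60 in flt3- CMP and 6.94 and 6.75 in HSC, a difference of -1.48 ± 0.23 (adjusted p = 0.00330). Rtp4, a receptor-transporter protein, had 6.37 and 6.36 in flt3- CMP and 7.78 and 7.68 in HSC, a difference of -1.37 ± 0.23 (adjusted p = 0.00494). For each of these 3 genes both flt3- CMP arrays lay below both HSC arrays, and the call was kept in every alternative run.

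Oas2, which makes the oligoadenylates that activate RNase L, had 5.84 and 5.66 in flt3- CMP and 7.37 and 7.03 in HSC (-1.45 ± 0.26, adjusted p = 0.00784). Oasl2, a related protein, had 5.58 and 5.92 in flt3- CMP and 7.24 and 6.92 in HSC (-1.33 ± 0.26, adjusted p = 0.0117). Ifit2 had 5.12 and 5.31 in flt3- CMP and 6.72 and 6.17 in HSC (-1.23 ± 0.27, adjusted p = 0.0217). For all 3, both flt3- CMP arrays lay below both HSC arrays.

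Gbp8 had 3.62 and 3.44 in flt3- CMP and 5.03 and 6.30 in HSC (-2.14 ± 0.46, adjusted p = 0.0206), so the fall in flt3- CMP took it below the overall median, and the HSC arrays were far apart. Igtp had 6.76 and 6.76 in flt3- CMP and 7.81 and 7.91 in HSC (-1.10 ± 0.21, adjusted p = 0.0116). Ifih1 fell by 0.90 (adjusted p = 0.0261). Bst2 had 8.25 and 8.15 in flt3- CMP and 7.32 and 7.36 in HSC and rose by 0.86 (adjusted p = 0.0486). This call ended under quantile normalization and was kept in 13 of 23 alternatives.

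The same 2 populations differed in markers of other cells. The summed log2 level of 7 of 7 neutrophil markers was 70.70 to 70.74 in flt3- CMP and 75.21 to 76.10 in HSC, and none of the 7 averaged below the overall median in either. That of 9 of 9 monocyte and macrophage markers was 54.04 to 54.97 in flt3- CMP and 51.40 to 51.43 in HSC, with C1qc and Vcam1 below the median in both, and that of 8 of 8 plasmacytoid dendritic cell markers was 41.83 to 43.19 in flt3- CMP and 38.64 to 41.28 in HSC, with Klk1 and Pacsin1 below it in both. Their part in the result was not tested. In these bulk samples, fewer cells of a type and less RNA per cell cannot be told apart. The count of 10 was 4 without flt3- CMP array 1, 4 without flt3- CMP array 2 and 5 without HSC array 1.

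**Figure D2:**
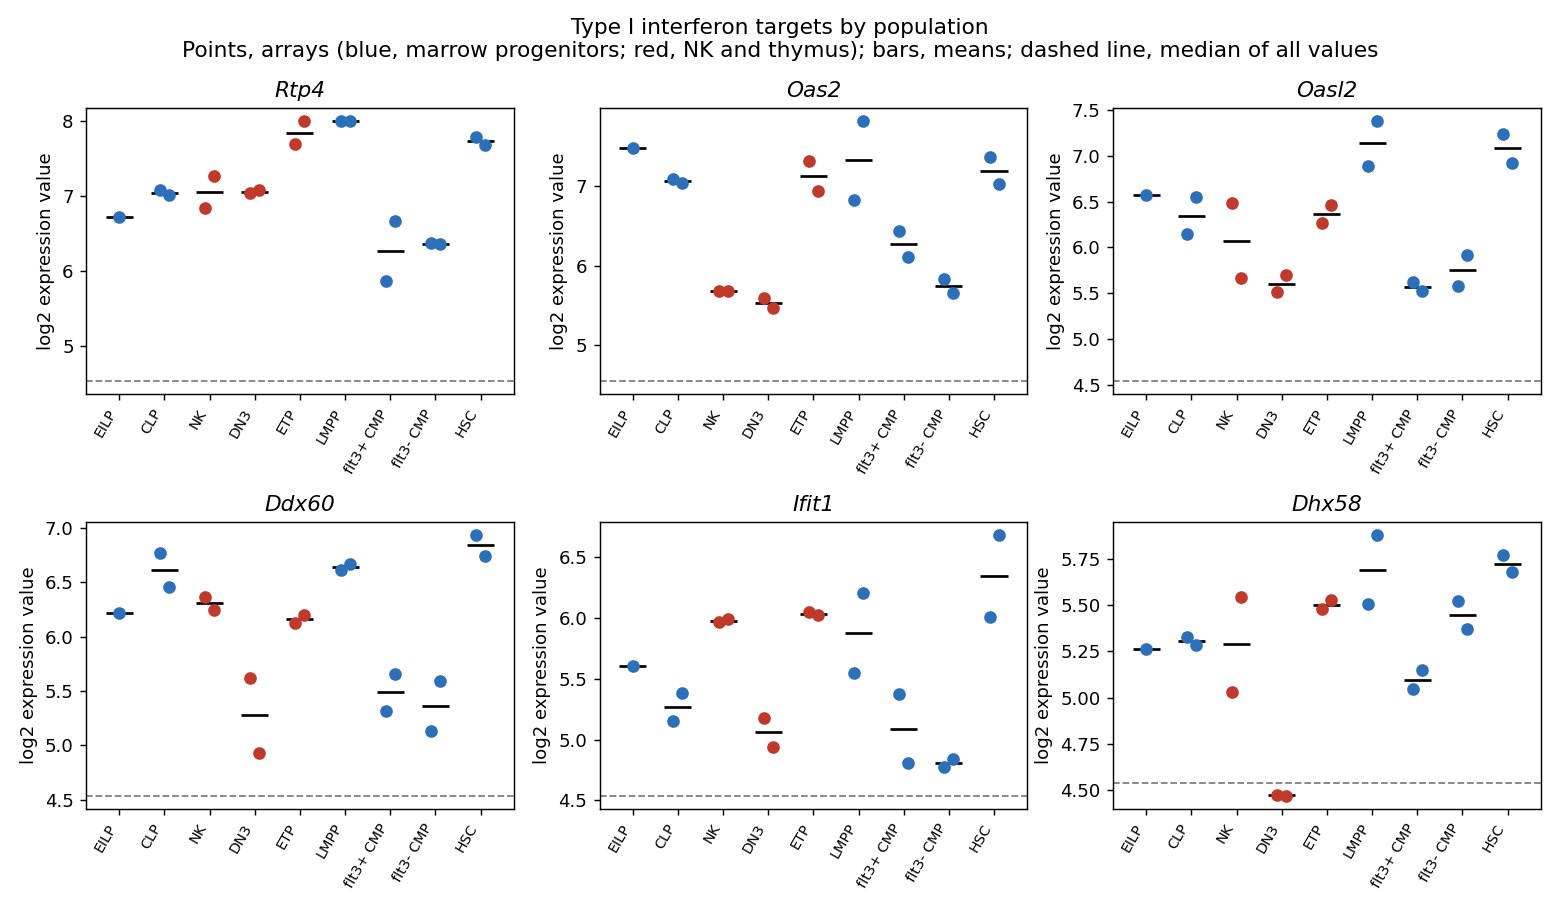
Log2 levels of Rtp4, Oas2, Oasl2, Ddx60, Ifit1 and Dhx58 in the 9 populations, with a point for each array, a bar for the mean and a dashed line at the median of all values, 4.54. The flt3- CMP arrays lie below the HSC arrays in all 6 panels, and Oas2 is lowest in DN3, NK and flt3- CMP.

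No member was called between flt3+ CMP and flt3- CMP by limma, where 0.108% of all genes were. An unadjusted p under 0.05 was found for 3 of the 37 members and for 2065 of the 22180 genes. These 3 members were Isg20 (-0.58), Bst2 (-0.50) and Mx2 (0.59), with adjusted p between 0.336 and 0.513. The type I median difference was -0.01. For Ifit1, with 5.37 and 4.81 in flt3+ CMP and 4.77 and 4.84 in flt3- CMP, and for Rtp4, with 5.86 and 6.67 in flt3+ CMP and 6.37 and 6.36 in flt3- CMP, the arrays of flt3+ CMP were farther apart than those of flt3- CMP.

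Between LMPP and HSC no member was called by limma, where 0.600% of all genes were. Unadjusted, p was under 0.05 for 7 of the 37 members and for 1641 of the 22180 genes. Rtp4 had 8.0 and 7.99 in LMPP and 7.78 and 7.68 in HSC, Oas2 had 6.83 and 7.83 in LMPP and 7.37 and 7.03 in HSC, and Ifit1 had 5.55 and 6.20 in LMPP and 6.01 and 6.68 in HSC. The 7 were Oasl1 with a difference of 0.63, and Gbp4 (-1.0), Ifih1 (-0.69), Igtp (-0.67), Gbp7 (-0.65), Ifit2 (-0.58) and Irf1 (-0.48), with adjusted p between 0.248 and 0.676. The median difference was 0.03 over the type I targets and -0.65 over the GTPases, against 0.01 over all genes.

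In the thymus, the DN3 stage differed from ETP in 12 of the 37 members, of which 9 fell and 3 rose, where 8.73% of all genes were called in either direction, 3.53% lower and 5.20% higher. The 9 that fell were all type I targets, namely Samhd1, Oas2, Mx2, Dhx58, Ifit1, Ddx60, Xaf1, Usp18 and Rtp4. Gbp4, Gbp8 and the sensor Zbp1 rose. The median log2 difference was -0.33 over the type I targets and 0.28 over the GTPases, against -0.03 over all genes.

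Samhd1, the enzyme that hydrolyses deoxynucleotide triphosphates and so limits reverse transcription, had 4.63 and 4.33 in DN3 and 9.23 and 9.30 in ETP. The log2 difference was -4.79 ± 0.18 (SE, n = 2 each, adjusted p = 2.62e-09). The DN3 values lay at about the overall median, no detection calls were used here, and the difference may understate the fall if those values are background. The same limit applies to the differences of Gbp4 and Ifng against values below the median. In the other populations its arrays lay between 9.04 and 10.62, so both DN3 arrays lay more than 4 below every other array. Its promoter holds a GAS match and no ISRE match in the window searched.

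Oas2 had 5.59 and 5.47 in DN3 and 7.32 and 6.94 in ETP (-1.60 ± 0.26, adjusted p = 0.00146). Mx2, a dynamin-like GTPase, had 4.08 and 3.63 in DN3 and 5.42 and 4.94 in ETP (-1.32 ± 0.25, adjusted p = 0.00379), low values on this array. Dhx58 (LGP2), a regulator of RNA sensing, had 4.48 and 4.47 in DN3 and 5.48 and 5.53 in ETP (-1.03 ± 0.18, adjusted p = 0.00220). In each of these 3 genes the DN3 arrays lay below the ETP arrays without overlap, and the DN3 arrays of Dhx58 were the lowest of all 17.

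Ifit1 had 5.18 and 4.94 in DN3 and 6.05 and 6.02 in ETP (-0.98 ± 0.25, adjusted p = 0.0288). Ddx60 had 5.62 and 4.93 in DN3 and 6.12 and 6.20 in ETP (-0.89 ± 0.23, adjusted p = 0.0258). Usp18, which removes Isg15 from proteins and restrains signalling at Ifnar2, had 6.05 and 6.38 in DN3 and 7.07 and 7.11 in ETP (-0.88 ± 0.25, adjusted p = 0.0456). The differences of these genes, of Rtp4 (-0.79) and of the apoptosis factor Xaf1 (-0.89) were under 2-fold, and the calls of Usp18, Rtp4 and Xaf1 ended when each array was centred on its median. Zbp1 is a sensor of Z-form nucleic acids that triggers necroptosis. It had 6.86 and 7.05 in DN3 and 5.30 and 6.11 in ETP (1.25 ± 0.36, adjusted p = 0.0476), a call that ended under quantile normalization. Of 23 alternatives, 10 kept the call of Usp18, 8 that of Rtp4, 11 that of Xaf1 and 10 that of Zbp1.

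DN3 and ETP arrays also differed in markers of other cells. The summed level of the 7 neutrophil markers was 29.39 to 32.39 in DN3 and 33.49 to 35.61 in ETP, with Camp and Retnlg below the overall median in both. The sum of the 8 plasmacytoid dendritic cell markers was 37.60 to 37.61 in DN3 and 41.31 to 43.57 in ETP, with Siglech, Klk1 and Pacsin1 below the median in both. Their part in these results was not tested. Transcripts of the Y chromosome (Uty, Kdm5d and Eif2s3y) averaged 6.90 to 8.15 in DN3 and 3.17 to 3.53 in ETP. CLP and EILP stood with DN3 in these genes (5.77 to 8.65 and 6.38 to 8.56), and their Samhd1 arrays were 10.17 to 10.62. Xist, of the X chromosome, averaged 7.32 in DN3, 9.20 in CLP and 9.24 in EILP, above the overall median, and 11.75 in ETP. Whether the pools high in Y-linked transcripts were of 1 sex is thus not known. The sex make-up of the pools and the stage cannot be told apart here. The count of 12 was 7 without DN3 array 1, 5 without DN3 array 2, 6 without ETP array 1 and 7 without ETP array 2.

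**Figure D3:**
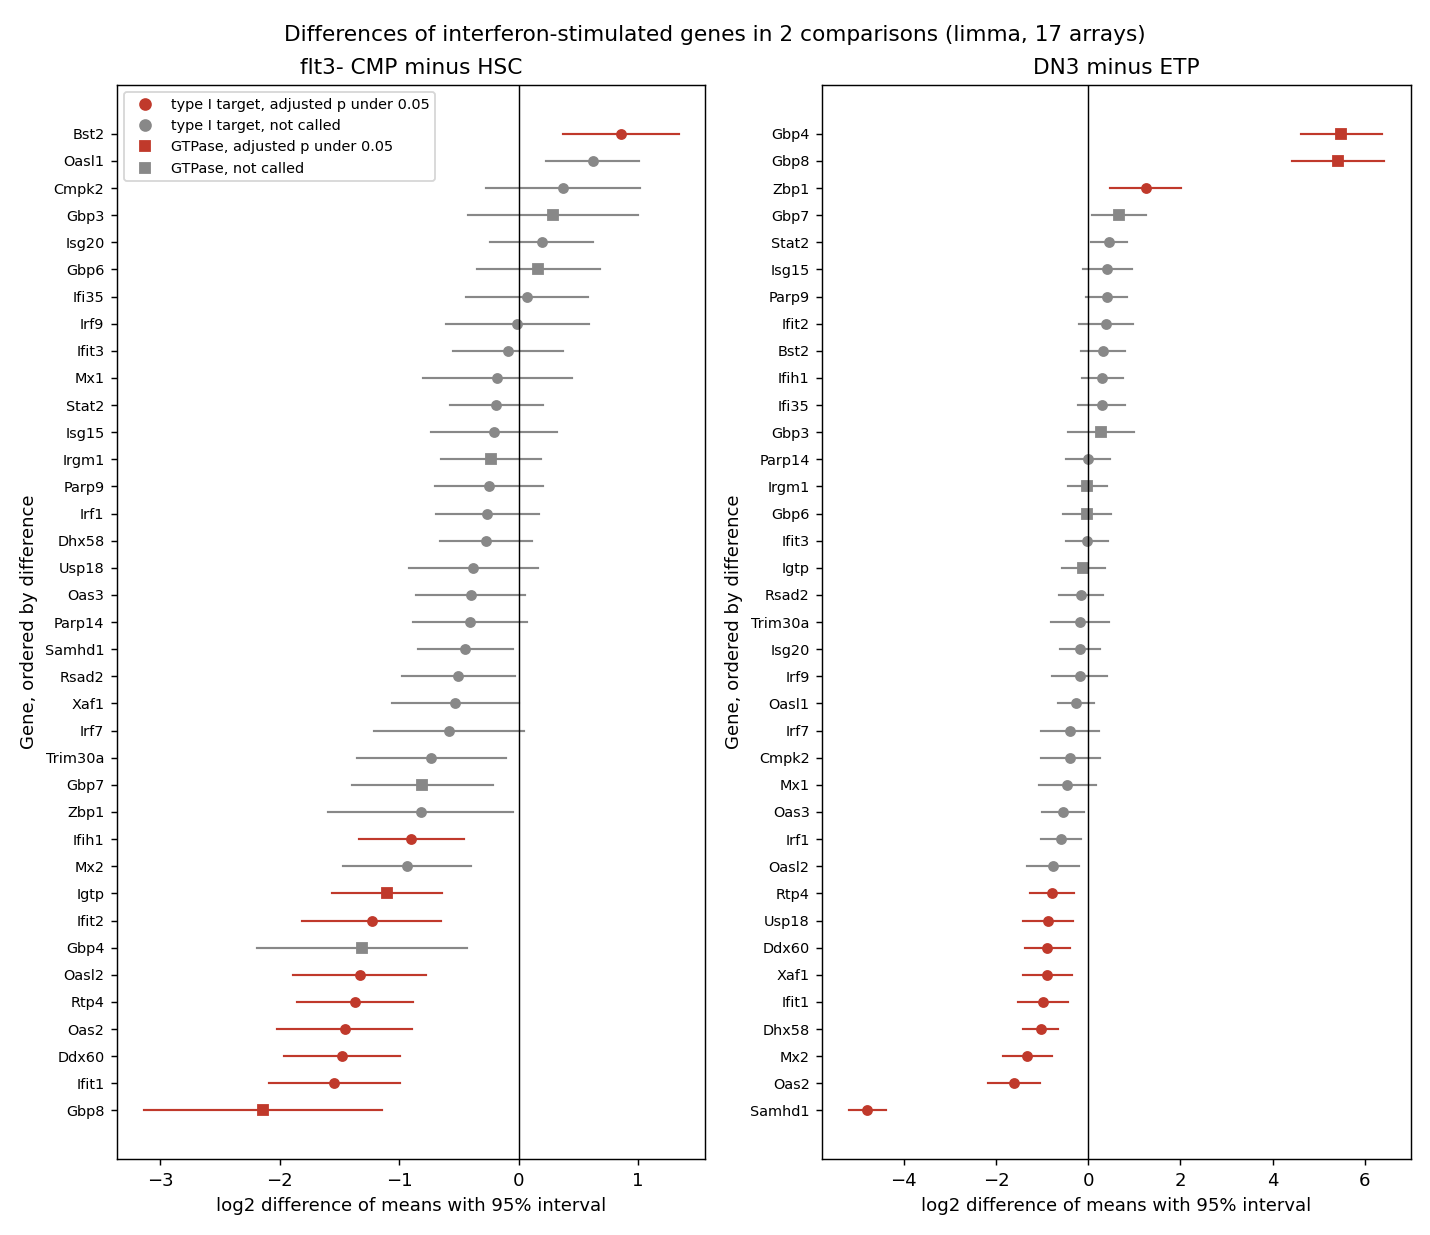
Log2 differences of the 37 members in flt3- CMP minus HSC and in DN3 minus ETP, with 95% intervals from the limma fit, circles for type I targets, squares for GTPases and red for an adjusted p under 0.05. In flt3- CMP minus HSC 9 members are called below 0, and in DN3 minus ETP Gbp4 and Gbp8 lie above 5 while Samhd1 lies below -4.

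Between ETP and LMPP, the step from marrow to thymus, 1 member was called, and it rose, where 3.42% of all genes were called, 1.02% higher and 2.40% lower. Irf1, a transcription factor that binds ISRE-like elements and whose promoter holds a GAS match, had 7.34 and 7.10 in ETP and 5.83 and 6.10 in LMPP, a difference of 1.26 ± 0.20 (SE, n = 2 each, adjusted p = 0.00225). Both ETP arrays lay above both LMPP arrays, and the call was kept in every alternative run. Rtp4 had 7.69 and 7.99 in ETP and 8.0 and 7.99 in LMPP, and Ifit1 had 6.05 and 6.02 in ETP and 5.55 and 6.20 in LMPP. The neutrophil markers summed to 33.49 to 35.61 in ETP and 74.91 to 75.98 in LMPP, and 3 of the 7 averaged below the overall median in ETP (Camp, Ltf and Retnlg). The count was 2 without ETP array 1, CLP array 1 or CLP array 2.

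NK cells differed from LMPP in 11 members, of which 7 rose and 4 fell, where 6.72% of all genes were called in either direction, 3.54% higher and 3.18% lower. Gbp4, Gbp8, Gbp7, Igtp, Zbp1, Irf1 and Samhd1 rose, and Oas2, Oasl2, Mx2 and Rtp4 fell. The median log2 difference was 0.78 over the GTPases and -0.06 over the type I targets, against 0.05 over all genes.

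Oas2 had 5.67 and 5.68 in NK and 6.83 and 7.83 in LMPP (-1.65 ± 0.26, adjusted p = 0.00145), with LMPP arrays that differed by more than the NK arrays did. Oasl2 had 6.48 and 5.67 in NK and 6.89 and 7.38 in LMPP (-1.06 ± 0.26, adjusted p = 0.0243). Zbp1 had 8.05 and 8.43 in NK, the highest of all arrays, and 6.93 and 6.62 in LMPP (1.47 ± 0.36, adjusted p = 0.0255). Irf1 had 6.85 and 7.28 in NK and 5.83 and 6.10 in LMPP (1.10 ± 0.20, adjusted p = 0.00417).

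Mx2 (-0.97), Rtp4 (-0.94) and Samhd1 (0.66) were called with differences under 2-fold. The calls of Samhd1, Gbp7 and Igtp ended both when arrays were centred on their medians and under quantile normalization. Of 23 alternatives, 8 kept the call of Samhd1, 5 that of Gbp7 and 8 that of Igtp. Markers of other cells also differed: 9 of 9 monocyte and macrophage markers summed to 57.62 to 58.84 in NK and 50.51 to 51.55 in LMPP, with C1qc and Vcam1 below the overall median in LMPP. The red cell markers summed to 18.64 to 19.25 in NK and 14.82 to 15.53 in LMPP, and the neutrophil markers to 76.78 to 77.87 in NK and 74.91 to 75.98 in LMPP. Their part was not tested. The count of 11 was 4 without LMPP array 1, 5 without LMPP array 2 and 6 without NK array 2.

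Across the populations outside the comparisons above, the same type I targets kept different orders. Ddx60 had 6.22 in EILP, 6.77 and 6.46 in CLP, 6.37 and 6.25 in NK, 6.61 and 6.67 in LMPP and 5.32 and 5.66 in flt3+ CMP. The 2 CMP populations and DN3 thus held its 6 lowest arrays, with none overlapping the other 11. Ifit1 had 5.61 in EILP, 5.15 and 5.39 in CLP and 5.97 and 5.99 in NK, so that CLP overlapped DN3 and flt3+ CMP. Rtp4 had 6.85 and 7.27 in NK and 7.03 and 7.08 in DN3, between the CMP arrays and those of ETP, LMPP and HSC.

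Oas2 had 7.10 and 7.04 in CLP and 6.44 and 6.11 in flt3+ CMP, so that the flt3+ CMP arrays lay between those of flt3- CMP and HSC. Oasl2 had 6.57 in EILP, 6.15 and 6.55 in CLP, 5.51 and 5.70 in DN3, 6.27 and 6.47 in ETP and 5.62 and 5.52 in flt3+ CMP. Its 4 highest arrays were those of LMPP and HSC. Ifit2 had 5.85 and 6.33 in NK, 5.51 and 5.60 in DN3, 5.10 and 5.24 in ETP, 5.59 and 6.14 in LMPP and 5.25 and 5.99 in flt3+ CMP, and its EILP array was the lowest of all 17.

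Dhx58 had 5.26 in EILP, 5.33 and 5.28 in CLP, 5.03 and 5.54 in NK, 5.51 and 5.88 in LMPP, 5.05 and 5.15 in flt3+ CMP, 5.52 and 5.37 in flt3- CMP and 5.77 and 5.68 in HSC. Outside DN3 its levels were close together. Mx2 had 4.62 in EILP, 3.76 and 4.40 in CLP, 3.75 and 4.16 in NK, 4.86 and 4.99 in LMPP, 4.75 and 4.71 in flt3+ CMP, 4.32 and 3.97 in flt3- CMP and 4.94 and 5.22 in HSC. Irf1 had 6.43 in EILP, 6.62 and 6.66 in CLP, 6.48 and 6.79 in DN3, 6.07 and 6.37 in flt3+ CMP, 6.10 and 6.27 in flt3- CMP and 6.63 and 6.26 in HSC, all below its ETP arrays and most above its LMPP arrays.

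Zbp1 had 7.36 in EILP, 7.54 and 6.90 in CLP, 4.99 and 6.05 in flt3+ CMP, 5.96 and 5.90 in flt3- CMP and 7.13 and 6.37 in HSC. Its low arrays were those of the CMP populations and ETP. Samhd1 had 10.0041 and 10.34 in NK, 9.04 and 9.45 in flt3+ CMP, 9.37 and 9.38 in flt3- CMP and 9.80 and 9.85 in HSC. It was highest in EILP, followed by CLP and NK, whose arrays overlap.

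Members called by the F-test and in no comparison of a pair were Oas3 (population means 4.51 in DN3 to 5.83 in EILP), Rsad2 (4.53 in DN3 to 5.62 in CLP), Cmpk2, a mitochondrial nucleotide kinase (5.32 in DN3 to 7.23 in CLP), Parp9 (6.26 in EILP to 7.53 in DN3), Trim30a (5.35 in flt3- CMP to 6.67 in NK) and Gbp3. Oas3, Rsad2 and Cmpk2 thus shared a low in DN3, and Parp9 had its high there.

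Among the GTPases, Gbp4 and Gbp8 were high in NK and DN3. These guanylate-binding proteins attack the vacuoles in which intracellular pathogens live. Gbp4 had 3.82 in EILP, 3.44 and 4.55 in CLP, 7.45 and 8.19 in NK, 9.12 and 8.45 in DN3, 3.13 and 3.46 in ETP, 3.91 and 3.28 in LMPP, 3.33 and 3.63 in flt3+ CMP, 3.45 and 3.11 in flt3- CMP and 4.08 and 5.11 in HSC. Outside NK and DN3, Gbp4 was at most 5.11, on HSC array 2, and most arrays lay below the overall median. Gbp8 had 4.09 in EILP, 6.58 and 5.66 in CLP, 7.39 and 8.23 in NK, 9.49 and 9.78 in DN3, 3.63 and 4.83 in ETP, 4.43 and 4.99 in LMPP, 4.28 and 3.77 in flt3+ CMP, 3.62 and 3.44 in flt3- CMP and 5.03 and 6.30 in HSC. Its order was DN3, NK, CLP and HSC, the CLP and HSC arrays overlapping, and then the other populations.

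Against ETP and LMPP arrays below the overall median, the measured rise of Gbp4 was 5.49 ± 0.41 in DN3 over ETP (SE, adjusted p = 1.21e-06) and 4.23 ± 0.41 in NK over LMPP (adjusted p = 1.78e-05). That of Gbp8 was 5.41 ± 0.46 in DN3 over ETP (adjusted p = 4.70e-06) and 3.10 ± 0.46 in NK over LMPP (adjusted p = 0.000916). All 4 calls were kept in every alternative run.

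Gbp7 had 6.38 in EILP, 7.55 and 7.26 in CLP, 8.01 and 8.69 in NK, 7.96 and 8.10 in DN3, 7.48 and 7.25 in ETP, 6.94 and 7.80 in LMPP, 7.41 and 7.10 in flt3+ CMP, 7.13 and 7.31 in flt3- CMP and 7.85 and 8.21 in HSC. Igtp had 6.65 in EILP, 6.91 and 7.31 in CLP, 7.84 and 8.10 in NK, 7.75 and 7.52 in DN3, 7.73 and 7.75 in ETP, 6.98 and 7.41 in LMPP, 7.21 and 6.63 in flt3+ CMP, 6.76 and 6.76 in flt3- CMP and 7.81 and 7.91 in HSC. Both were expressed well above the overall median everywhere, and they rose by less than 2-fold in NK over LMPP (log2 0.98 for Gbp7 and 0.78 for Igtp). Gbp3 was called by the F-test alone, with its highest mean in flt3+ CMP (6.77) and its lowest in ETP (5.21), and Irgm1 (5.95 to 6.79) was not called.

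In RefSeq's order of protein-coding genes, Gbp8, Gbp9, Gbp4, Gbp10 and Gbp6 are consecutive on chromosome 5, while Gbp7 and Gbp3 lie with Gbp5, Gbp2b and Gbp2 on chromosome 3. Of the first group, the non-members Gbp9 and Gbp10 also rose in DN3 over ETP, by 3.54 (adjusted p = 8.22e-06) and 1.86 (adjusted p = 0.00950), and in NK over LMPP, by 2.89 (adjusted p = 6.58e-05) and 1.58 (adjusted p = 0.0301). Gbp6 was not called in any comparison. These paralogs share sequence, so probes may cross-hybridise among them, and which of the copies carries a signal is uncertain. The same applies to Ifit3 and its copy Ifit3b and to Trim30a.

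**Figure D4:**
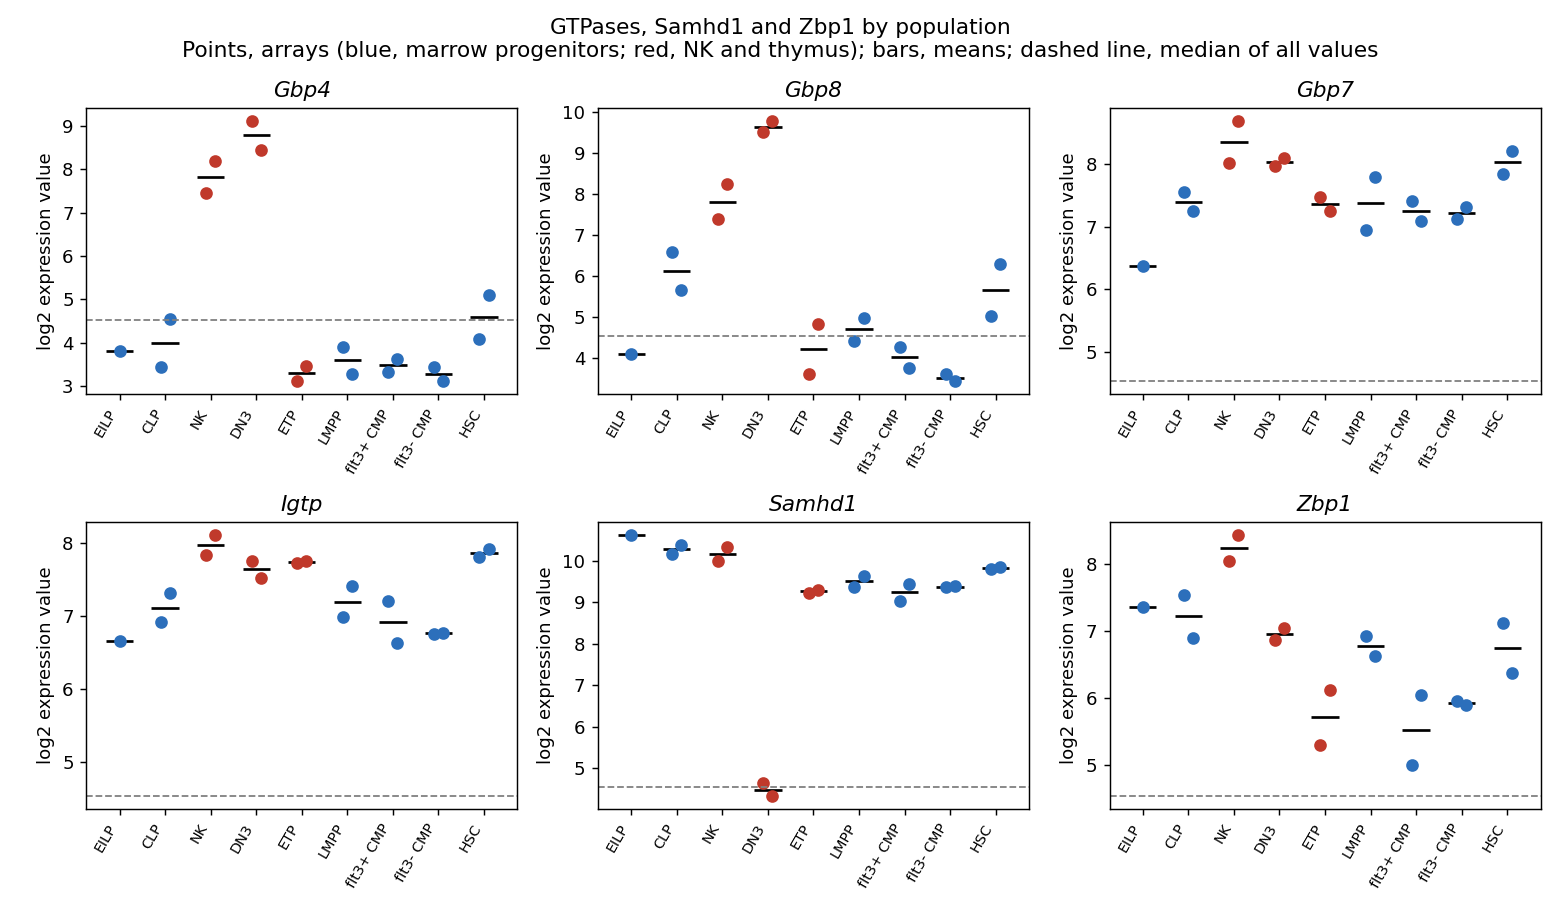
Log2 levels of Gbp4, Gbp8, Gbp7, Igtp, Samhd1 and Zbp1 in the 9 populations, with a point for each array, a bar for the mean and a dashed line at the median of all values, 4.54. The NK and DN3 arrays of Gbp4 and Gbp8 lie between 7.39 and 9.78, above every other array, and the DN3 arrays of Samhd1 lie near the median.

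EILP, with 1 array, differed from NK in 6 members, where 3.48% of all genes were called in either direction, 1.57% higher and 1.91% lower. Of the GTPases 4 fell, and of the type I targets 2 rose. Gbp4 fell by 4.0 (SE 0.50, adjusted p = 0.000331), Gbp8 by 3.72 (SE 0.57, adjusted p = 0.00193), Gbp7 by 1.98 (SE 0.34, adjusted p = 0.00435) and Igtp by 1.32 (SE 0.26, adjusted p = 0.0120). The GTPase median difference was -1.32, against -0.05 over all genes. The EILP array of Gbp7 was the lowest of all 17.

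Oas2 had 7.48 in EILP and 5.67 and 5.68 in NK, a rise of 1.81 ± 0.32 (adjusted p = 0.00599). Isg20, an exonuclease whose promoter holds a GAS match, had 7.68 in EILP, 7.16 and 7.01 in CLP, 6.88 and 6.38 in NK, 6.67 and 6.40 in DN3, 6.84 and 6.58 in ETP, 6.61 and 6.35 in LMPP, 6.29 and 6.28 in flt3+ CMP, 6.77 and 6.96 in flt3- CMP and 6.85 and 6.49 in HSC. Its EILP array was the highest of all 17. It rose by 1.05 ± 0.24 in EILP over NK (adjusted p = 0.0304) and by 1.2 ± 0.24 in EILP over LMPP (adjusted p = 0.0131).

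EILP differed from LMPP in 3 members, of which 2 rose and 1 fell, where 3.90% of all genes were called, 2.10% higher and 1.79% lower. Besides Isg20, Samhd1 had 10.62 in EILP and 9.38 and 9.64 in LMPP, a rise of 1.11 ± 0.23 (adjusted p = 0.0132). Rtp4 had 6.71 in EILP and 8.0 and 7.99 in LMPP, a fall of 1.28 (SE 0.28, adjusted p = 0.0192). Leaving out either LMPP array ended calls, those of Rtp4 and Samhd1 without array 1 and those of Rtp4 and Isg20 without array 2.

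CLP differed from LMPP in 2 members, 1 higher and 1 lower, where 5.96% of all genes were called, 3.75% higher and 2.20% lower, so this share (2 of 37) lay about at the background. Samhd1 had 10.17 and 10.39 in CLP and 9.38 and 9.64 in LMPP, a rise of 0.77 ± 0.18 (adjusted p = 0.0239). Rtp4 had 7.08 and 7.01 in CLP and 8.0 and 7.99 in LMPP, a fall of 0.95 (SE 0.23, adjusted p = 0.0219). Neither call was made when any of the LMPP or CLP arrays was left out. No member was called between EILP and CLP by limma, where 0.365% of all genes were. Unadjusted, p was under 0.05 for 1917 of the 22180 genes and for 5 of the 37 members.

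Those 5 were Gbp8 with 4.09 in EILP and 6.58 and 5.66 in CLP (-2.02 ± 0.57, adjusted p = 0.235), Ifit2 with 4.84 in EILP and 6.16 and 5.89 in CLP (-1.18 ± 0.33, adjusted p = 0.235), Gbp7 (-1.03), Ifi35 (-0.70) and Isg20 (0.59). The median SE of a difference over all genes was 0.24 for EILP and 0.20 for populations of 2 arrays. EILP and CLP differed from LMPP and NK in Y-linked genes (Eif2s3y 8.56 in EILP and 8.65 in CLP, against 3.34 in LMPP and 3.21 in NK). There the sex make-up of the pools and the population cannot be told apart. The 9 monocyte and macrophage markers summed to 62.56 in EILP and to 60.42 to 61.09 in CLP, against 57.62 to 58.84 in NK and 50.51 to 51.55 in LMPP. The 7 neutrophil markers summed to 81.72 in EILP and 80.72 to 81.53 in CLP, against 76.78 to 77.87 in NK and 74.91 to 75.98 in LMPP. The 3 red cell markers measured, of 7 listed, summed to 20.98 in EILP and 20.96 to 21.25 in CLP, against 18.64 to 19.25 in NK and 14.82 to 15.53 in LMPP. The part of these markers in the results was not tested.

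The pathway upstream of these genes was described with lists of other interferon genes. Of 19 interferon ligand genes measured, of 21 listed, 1 was called in any comparison. Ifng, encoding interferon gamma, had 7.70 and 6.96 in NK and at most 3.70 on every other array. Against values below the overall median, it rose by a measured 4.05 ± 0.23 in NK over LMPP (adjusted p = 6.65e-08) and fell by 3.87 in EILP over NK (SE 0.28, adjusted p = 1.71e-06). In DN3, where Gbp4 and Gbp8 were highest, Ifng had 3.25 and 3.40.

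Of the 6 receptor subunits, Ifnar1 (7.24 to 8.20) was not called in any comparison. Ifnar2, its partner, had 8.90 and 9.16 in DN3 and 9.83 and 9.94 in ETP, a fall of 0.85 (SE 0.15, adjusted p = 0.00271). Ifngr1, the ligand-binding subunit for interferon gamma, had 9.70 and 9.73 in DN3 and 7.46 and 8.38 in ETP, a rise of 1.80 ± 0.24 (adjusted p = 0.000298). It had 9.65 and 9.76 in NK and 8.29 and 7.99 in LMPP, a rise of 1.57 ± 0.24 (adjusted p = 0.00115). The arrays high in Ifngr1 were thus those of NK and DN3, as for Gbp4 and Gbp8. Its partner Ifngr2 had another order and was not called in any comparison (F-test adjusted p = 0.00689). Its means were 6.54 in NK and 6.32 in DN3, against 5.95 in ETP, 6.72 in LMPP, 7.64 in CLP and 7.88 in EILP. A link between receptor levels and these GTPases was not tested.

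Ifnlr1, a receptor subunit for interferon lambda, rose in EILP and CLP over LMPP, by 1.15 and 1.43 (adjusted p = 0.0100 and 0.000315). Il10rb, its shared partner, fell by 1.37 in DN3 over ETP (adjusted p = 0.00190) and by 0.98 in ETP over LMPP (adjusted p = 0.0344). Of 9 signalling genes measured, of 10 listed, 1 was called in NK over LMPP, the kinase Jak1 (1.49 ± 0.16, adjusted p = 5.00e-05), which was also lower in EILP than in NK (-1.49, adjusted p = 0.000537). Socs1, an inhibitor of these kinases, rose by 1.23 ± 0.20 in DN3 over ETP (adjusted p = 0.00124).

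Of 14 genes of interferon induction measured, of 19 listed, 3 were called in flt3- CMP over HSC, where 4.22% of all genes were, and 4 in DN3 over ETP, where 8.73% were. Ddx58 (RIG-I) had 6.31 and 6.23 in flt3- CMP and 7.58 and 7.53 in HSC, a fall of 1.29 (SE 0.15, adjusted p = 0.000574). Tlr3 fell by 1.03 (adjusted p = 0.0377), and Irf8 rose by 1.32 (adjusted p = 0.0252). However, Tlr3 lay below the overall median on every array (2.93 to 4.13) and did not pass the F-test (adjusted p = 0.103). In DN3 over ETP, Sting1 fell by 1.5, Tlr7 by 2.72, Tbk1 by 0.63 and Irf8 by 1.34, with adjusted p between 0.000180 and 0.0468. Tlr7 alone of the 14 was called in LMPP over HSC (higher) and in NK over LMPP (lower), where 0.600% and 6.72% of all genes were. Ddx58 alone was called in CLP over LMPP and Irf8 alone in ETP over LMPP, both lower, where 5.96% and 3.42% of all genes were called. Of 46 other interferon-stimulated genes measured, of 57 listed, 6 fell and none rose in flt3- CMP over HSC, where 1.82% of all genes fell and 2.40% rose. The largest falls were those of the GTPase gene Iigp1, with 5.02 and 5.27 in flt3- CMP and 8.23 and 8.05 in HSC (-2.99 ± 0.32, adjusted p = 0.000223), and of Oas1g (-2.60 ± 0.55, adjusted p = 0.0179). In ETP over LMPP 8 of the 46 fell and none rose, where 2.40% of all genes fell and 1.02% rose, among them Iigp1 (-2.41), Oas1g (-3.27) and Ifitm3 (-0.94). In NK over LMPP 5 rose and 5 fell, where 3.54% of all genes rose and 3.18% fell. Of the same 46, 3 rose and 5 fell in CLP over LMPP, where 3.75% of all genes rose and 2.20% fell. For EILP over LMPP 3 rose and 2 fell, where 2.10% of all genes rose and 1.79% fell. For EILP over NK 4 rose and 5 fell, where 1.57% of all genes rose and 1.91% fell. In DN3 over ETP 4 rose and 7 fell, where 5.20% of all genes rose and 3.53% fell, among them Ifitm3, a block to viral entry, with 6.87 and 7.21 in DN3 and 9.53 and 9.86 in ETP (-2.65 ± 0.19, adjusted p = 9.74e-07).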

How the data were processed

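Interferon-stimulated genes were read from 17 Affymetrix Mouse Gene 2.0 ST arrays. Per the labels' protocols, RNA was extracted with Trizol and amplified before hybridisation. The authors deposited log2 expression values for 41345 probe sets, made with Affymetrix Expression Console per the submitters' processing notes. Neither its version nor its algorithm was stated in the sources used here, and the log2 scale was read from the values (1.58 to 13.77). GEO's platform annotation gave 23521 probe sets a single symbol, 1814 several and 16010 none, which left 22180 genes after the highest-mean probe set was kept for the 1082 genes with several.

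With limma 3.58.1 (R 4.3.3), a mean for each population was estimated from all 17 arrays in 1 fit (8 residual and 5.33 prior degrees of freedom). EILP, with 1 array, was assumed to vary like the others. An F-test and 10 two-sided comparisons were run, with Benjamini-Hochberg adjustment across all genes and a call below 0.05. Comparisons that share a population share its arrays. The number of arrays limits the precision. Labels do not say whether replicates were separate pools, so p-values measure the spread between arrays, which may be technical. Replicate numbers did not pair the arrays, since none of 28 population pairs had a correlation of deviations over 0.1.

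The members and lists were chosen with earlier results of these data known. Given in full were members called by the F-test and at least 2-fold in a comparison, plus Stat2, Irf7, Irf9 and Isg15. The fit was tested on simulated data. Alternatives were array centring, quantile normalization, a filter on dim genes, the mean of probe sets, all probe sets, a replicate block, the 2 populations alone and leaving out each array. Promoters came from RefSeq, GRCm38.p6. The array's genome build was not stated. Slide and scan batches were not analysed here.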

Additional observations from a re-analysis of the deposited data

How the results depend on the processing

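Of 45 member calls over the 10 comparisons, 13 were kept in every alternative and none reversed. These were Gbp4 and Gbp8 in EILP minus NK, NK minus LMPP and DN3 minus ETP, Ifit1, Ddx60 and Rtp4 in flt3- CMP minus HSC, Irf1 in ETP minus LMPP, and Oas2, Dhx58 and Samhd1 in DN3 minus ETP. Centring each array kept 39 of the 45, quantile normalization 40, all probe sets 24 and the 2 populations alone 25. The filter on dim genes kept all 43 it could test. The mean of probe sets kept 45, but it could not change the levels of the called members. Among the members only Ifi35, which was not called, had more than 1 probe set. With a replicate block 43 were kept, and 10 members were called in NK minus LMPP and 11 in DN3 minus ETP (Igtp and Zbp1 lost). With all probe sets tested, the counts were 0 in CLP minus LMPP, 4 in NK minus LMPP, 6 in flt3- CMP minus HSC and 6 in DN3 minus ETP, where the p-values are adjusted over more tests. With only the 2 populations in the fit, they were 1 in EILP minus LMPP, 2 in EILP minus NK, 1 in CLP minus LMPP and 3 in NK minus LMPP, where fewer arrays estimate the spread. Leaving out 1 array gave 21 to 25 members in the F-test, 1 to 4 in EILP minus LMPP, 4 to 9 in EILP minus NK, 0 to 4 in CLP minus LMPP, 4 to 10 in NK minus LMPP, 4 to 11 in flt3- CMP minus HSC, 1 to 2 in ETP minus LMPP, 5 to 12 in DN3 minus ETP, and 0 in each of the other comparisons. CLP minus LMPP called 4 without NK array 1 or NK array 2. In a fit limited to the arrays high in Y-linked transcripts (DN3, CLP and EILP), an alternative chosen after seeing the data, EILP minus CLP called 0 members, as with all arrays, and a fit of so few arrays says nothing about stability. With 1 or 2 arrays per population, small differences in dim genes such as Mx1 and Gbp6 cannot be resolved.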
